A study of Drosophila melanogaster with 4 samples.

Results

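The control samples of this RNA sequencing study describe the transcript levels of the larval central nervous system of Drosophila melanogaster in the control genotype. They are the samples titled control1 and control2, 2 of the 4 samples in the series, called control 1 and control 2 here, and were chosen by title alone. Both carry the genotype repo-Gal4>mRFP: the glial driver repo-Gal4, which places the yeast transcription factor Gal4 in glia, switched on the red fluorescent protein mRFP. Each sample pooled 70 to 100 dissected nervous systems at 96 hours after egg laying, so values are averages over many animals and all cell types. The other 2 samples are labelled reprogrammed and were not analysed here. With 2 libraries of 1 group there is no comparison between groups and no p-value, and every statement describes these pools. Whether the pools came from separate crosses is not stated, so the spread between them may be technical.

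The larval nervous system is a growing tissue. Neuroblasts, its stem cells, divide unequally to renew themselves and to give ganglion mother cells, whose daughters become neurons or glia, while the optic lobes grow from a neuroepithelium that turns into neuroblasts. Differentiated larval neurons already run the animal's behaviour, and glia wrap, feed and seal the tissue behind a blood-brain barrier. Pulses of the steroid hormone ecdysone, made in the ring gland beside the brain, time much of this growth.

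Levels are given as FPKM, fragments per kilobase of transcript and per unit of sequencing depth, which makes genes of different length comparable within a library. Control 1 listed 12423 genes and control 2 listed 12620. A gene missing from a table was taken as 0, and 13321 genes were listed in at least 1 library and 11722 in both. At 1 FPKM or more, the level used here to call a gene expressed, stood 9549 genes in control 1, 9935 in control 2 and 9257 in both. Read from the spacing of low values, 1 FPKM on 1 kilobase of transcript was worth 11.6 reads in control 1 and 12.4 in control 2. The kilobase here is what is left after 50 bases are taken off the transcript length. With 1 kilobase left, a gene listed at 0 could still have stood at up to 0.258 FPKM in control 1 or 0.242 in control 2. That is the worth of 3 reads, and this limit covers counting error only.

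The libraries differed at many genes. Over 9904 genes with a mean of at least 1 FPKM, 1680 genes (17%) were at least 2-fold higher in control 2 than in control 1 and 460 (4.64%) were at least 2-fold lower, on the log2(FPKM + 1) scale used for every difference below. Wide gaps included genes of the salivary gland and fat body lists beside genes with no named product. All 5 expressed salivary gland genes fell among the lower ones. Each was under 1 FPKM in control 2 and passed the filter on the mean only through control 1, which favours this outcome. Sgs7 (NCBI gene 47198), which encodes a protein of the glue that fixes the pupa to its support, stood at 734 FPKM in control 1 and was listed at 0 in control 2. Sgs5 stood at 172 and 0.14 FPKM, and Sgs8 at 50.7 FPKM and 0. Sgs3 stood at 23.6 FPKM and 0, and Sgs1 was at 0.02 FPKM and 0. Apart from Sgs1 these glue genes were high or moderate in control 1 and near or at 0 in control 2.

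Other genes of this kind went the opposite way. Of the 7 fat body genes, 5 were at least 2-fold higher in control 2, against the 17% of all genes. The larval serum protein gene Lsp1beta (NCBI gene 33274), which encodes a storage protein made in fat body, stood at 14.3 FPKM in control 1 and 801 in control 2. Its relatives Lsp1gamma (7.82 and 139 FPKM) and Lsp1alpha (7.59 and 115 FPKM) showed the same order, whereas Lsp2 stood at 126 and 199.6 FPKM and Fbp1, a fat body receptor gene, at 45.0 and 22.4. Of 10 expressed muscle genes, 6 were at least 2-fold higher in control 2, among them Act57B, a muscle actin, at 37.9 and 222 FPKM, and the myosin light chain genes Mlc1 and Mlc2 at 27.8 and 101 and at 16.2 and 90.2 FPKM. Act79B, another muscle actin, was listed at 0 and 0.11 FPKM. Closely related copies such as the Lsp1 genes can share reads, so their split is uncertain.

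Genes known from the salivary gland did not all move the same way. The genes ng1, ng2 and ng3, known as new glue genes, and Pig1 lie within 5 places of Sgs4 in the RefSeq gene order and are known as salivary gland genes that are active before the glue genes. They were named after their values were seen. The gene ng3 stood at 0.77 FPKM in control 1 and 777 in control 2, ng2 at 0 and 358, ng1 at 0 and 228, and Pig1 at 1.45 and 29.9. Sgs4 beside them stood at 36.5 and 0.80 FPKM, so the neighbours and Sgs4 were high in opposite libraries.

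**Figure D1:**
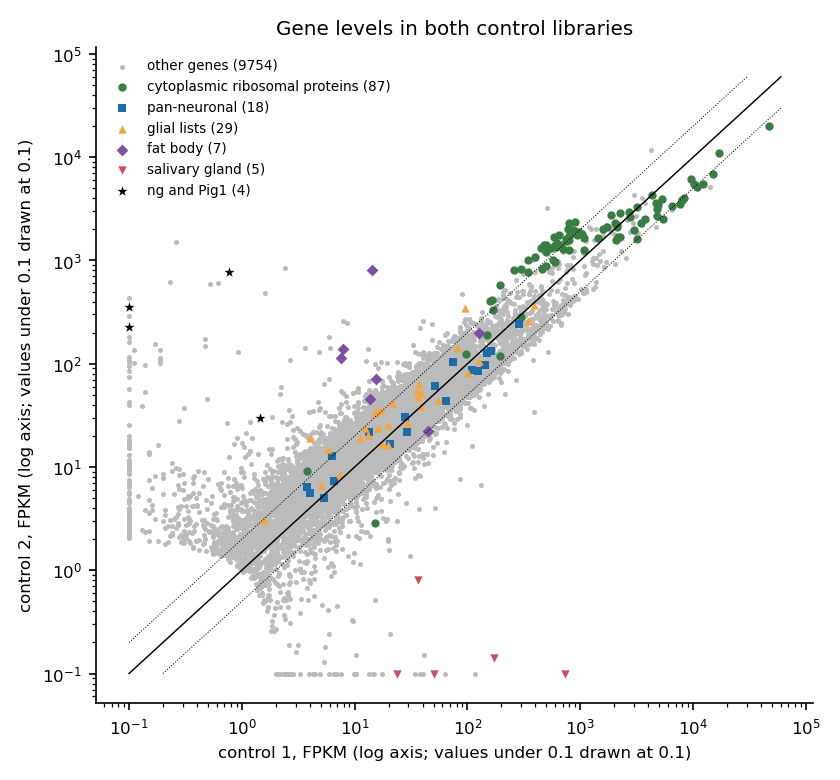
FPKM of 9904 genes in control 1 (x axis) and control 2 (y axis), both on log axes, with equality as a solid line and 2-fold differences as dotted lines; symbols mark the gene groups named in the key and values under 0.1 are drawn at 0.1. Most genes lie near the line, the salivary gland genes lie below it, and the ng genes, Pig1 and most fat body genes lie above it.

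By the rule used to name large differences, a mean of at least 10 FPKM, the 8 genes lowest in control 2 relative to control 1 were Sgs7, Sgs5, CG14332, the antisense RNA asRNA:CR46034, Sgs8, the lysozyme gene LysB, CG42834 and CG33333. CG14332 stood at 118 FPKM in control 1 and was listed at 0 in control 2, and LysB stood at 40.7 FPKM and 0. The 8 genes highest in control 2 were Peritrophin-15a, CG5084, ng3, Muc96D, CG12934, CG32071, ng2 and Peritrophin-15b. Peritrophin-15a (NCBI gene 50433), which encodes a chitin-binding protein related to those of the gut lining, stood at 0.26 FPKM in control 1 and 1516 in control 2. The mucin gene Muc96D stood at 0.06 and 431 FPKM. In each direction the leading genes were near 0 in 1 library and far higher in the other. Picking the largest differences above this mean favours that pattern, so it is a description only.

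Gaps of this size were few. Of 6162 genes with a mean of 10 FPKM or more, 63 differed at least 16-fold, 50 of them higher and 13 lower in control 2, and together they held 0.203% of the FPKM sum of control 1 and 1.65% of that of control 2. In pooled tissue, fewer cells of a type and less RNA per cell cannot be told apart. The labels give both pools the same stage of 96 hours and the same dissection protocol, and whether the pools differed in exact age or in attached tissue is not stated and was not tested, so every difference between them described below may hold such a part.

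Markers of nervous system cells were present in both libraries. All 18 pan-neuronal genes, all 29 genes of the 3 glial lists, all 13 neuroblast genes and all 20 optic lobe genes stood at a mean of 1 FPKM or more, against 9904 of all 13321 listed genes. Their medians were 41.4 FPKM for pan-neuronal genes, 20.4 for pan-glial genes, 20.7 for neuroblast genes and 13.7 for optic lobe genes. Of 5 names listed for ganglion mother cells and newborn neurons, 4 were matched to genes, all but hdc. These 4 had a median of 81.9 FPKM, with a range of 2.685 to 152 FPKM.

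Lists of other tissues were mixed. The 9 hemocyte genes were all expressed with a median of 14.01 FPKM, led by He, which marks blood cells, at 671 FPKM in control 1 and 236 in control 2. PPO1 and PPO2, prophenol oxidases of crystal cells, stood at 25.1 and 49.9 FPKM and at 21.5 and 49.3 FPKM. Of 9 names listed for the ring gland, 8 were matched to genes, all but phm, and these had a median of 56.7 FPKM. Of 6 gut genes, 3 passed 1 FPKM, the digestive protease genes Jon65Aiv (49.9 and 12.9 FPKM), betaTry (6.53 and 0.96) and alphaTry (2.51 and 0), and Amy-p, which encodes amylase, stood at 0.11 and 0.21 FPKM. Of 5 germline genes matched, 2 passed 1 FPKM, bol at 11.7 and 15.5 FPKM and bam at 1.53 and 0.48 FPKM, while vas stood at 0.28 and 1 FPKM and aly was listed at 0. Of 6 imaginal disc genes, 5 passed 1 FPKM, led by rn at 36.4 and 19.6 FPKM, Dll at 24.01 and 25.7 and nab at 7.73 and 14.4, and the opsin gene ninaE was listed at 0 and 0.16 FPKM. Of 7 genes of cuticle and trachea the highest were verm at 45.1 and 108 FPKM, Lcp4 at 52.8 and 87.8 FPKM and serp at 14.7 and 38.7 FPKM. This list was split: 3 genes (42.9%) were at least 2-fold higher and 2 (28.6%) at least 2-fold lower in control 2. The shares of all genes were 17% and 4.64%. The 2 lower genes were Lcp1 and Lcp2, with log2 differences of −3.03 and −3.42. At least 1 gene of each of these lists was thus expressed beside those of the nervous system. Gut (3 of 6) and germline (2 of 5) had the smallest shares of genes expressed, and muscle (10 of 11) and cuticle and trachea (7 of 7) were among the lists with larger ones.

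**Figure D2:**
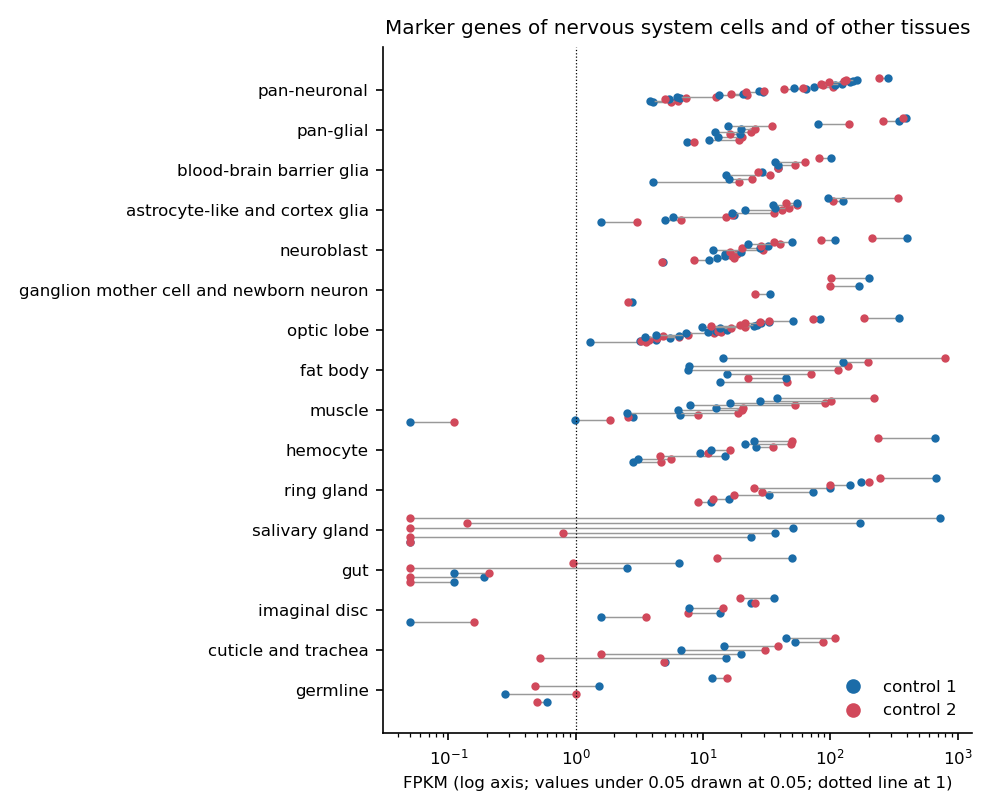
FPKM (log axis) of each marker gene in control 1 (blue) and control 2 (red), joined by a line for each gene and grouped by the tissue or cell type the list names. Neuronal, glial and neuroblast markers lie above the dotted line at 1 FPKM in both libraries, and the salivary gland genes reach 734 FPKM in control 1 but lie under 1 FPKM in control 2.

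The transcriptome was dominated by few genes. The most abundant gene held 4.55% of the mean FPKM sum, the 10 most abundant held 15.6%, the 100 most abundant 42.9% and the 1000 most abundant 74.8%. The share of the leading 100 genes was 46.7% in control 1 and 38.7% in control 2 when they were ranked by the mean of both. By level, 106 genes stood at 1000 FPKM or more and held 43.8% of the sum, 922 stood between 100 and 1000, 5134 between 10 and 100, 3742 between 1 and 10, and 3417 under 1. Genes annotated as protein-coding made 97.5% of the sum, with 9167 of 11784 listed genes expressed.

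Genes of the cytoplasmic ribosome headed the ranking. RpL41 (NCBI gene 251466), which encodes a very small protein of the large subunit, was the most abundant gene in both libraries, at 47196 FPKM in control 1 and 20201 in control 2. RpS29 followed at 16958 and 10931 FPKM, then RpL21 at 15048 and 6845 FPKM. Genes of this class took 19 of the 25 leading places and 55 of the leading 100. Of 93 such genes matched, 87 were expressed, and together they held 34.3% of the FPKM sum in control 1 and 28.9% in control 2. The median over all 93 was 1353 FPKM. At the low end, the paralog RpL22-like stood at 1.15 and 0.41 FPKM and RpS10a at 0.45 and 0.14, RpL37-2 and RpL10Aa were under 1 FPKM, and 2 more copies were listed in neither pool.

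The ribosomal genes did not all shift the same way. Of the 20 most abundant, 19 were lower in control 2, with a median difference of −0.92, and of the other 67, 55 were higher, with a median of 0.96. With both libraries scaled to a common median these counts were 20 of 20 lower and 45 of 67 higher. On a common sum they were 18 of 20 and 58 of 67. The 20 genes were picked by the mean of the same libraries, which favours genes high in either pool, so this is a description only.

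The other 6 of the 25 leading genes encode no ribosomal protein. The gene fabp (NCBI gene 3772232), for a fatty acid binding protein, stood at 14222 FPKM in control 1 and 5157 in control 2. Obp44a (NCBI gene 35789), of the odorant-binding protein family of small secreted carriers, stood at 4232 and 11851 FPKM, and was the second most abundant gene of control 2 but at place 23 in control 1. His4r, a histone H4 gene expressed outside S phase, stood at 6448 and 3076 FPKM, and near-identical histone H4 copies make its value uncertain. Act5C, the main cytoplasmic actin gene, stood at 3497 and 3997 FPKM. Df31, for a chromatin decondensation factor, stood at 3724 and 3631 FPKM. The elongation factor gene eEF1alpha1 stood at 3000 and 4289 FPKM. Act5C, Df31 and eEF1alpha1 thus differed by less than 1.5-fold between the pools, and fabp and Obp44a by over 2-fold in opposite directions.

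Further down, named after their values were seen, came Hsp23, a small heat shock protein gene, at 4688 and 2121 FPKM, and Sumo, the small ubiquitin-like modifier, at 3110 and 2714 FPKM. The metallothionein gene MtnA stood at 3138 and 1873 FPKM and Ggamma1, a G protein subunit gene, at 3153 and 1618 FPKM. The replication-independent histone gene His3.3B stood at 3229 and 1837 FPKM. Calmodulin, the calcium sensor encoded by Cam, stood at 881 and 1231 FPKM.

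Across the 9904 expressed genes the libraries correlated with a Pearson coefficient of 0.89 and a Spearman coefficient of 0.89 on the log2 scale, as a description over genes that share both pools. The median difference, control 2 minus control 1, was 0.33 and the SD of the differences was 0.95. Differences lay between −0.24 and 0.82 for the middle 50% of genes, and 28% of genes lay within 1.25-fold. The SD that read counting alone would give had a median of 0.11 over genes, so the spread between the pools was much wider than counting error. It did not fall steadily with level, with an SD of 0.82 for genes of 10 to 30 FPKM, 1.04 for 30 to 100 FPKM, 1.71 for 300 to 1000 FPKM and 0.85 above 1000 FPKM. The shift of 0.33 depends on the scale: it was −0.07 with both libraries at a common median and 0.46 at a common sum. Of the genes that differed at least 2-fold, 78.5% were higher in control 2 as deposited, 34.9% at a common median and 87.4% at a common sum.

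Ranks were shared in large part. Of the 10 leading genes of each library 8 were shared, as were 21 of 25, 70 of 100 and 754 of 1000. Of 281 neighbouring pairs in the order of levels within 24 marker lists and gene families, 101 had both libraries of the higher gene above both of the lower. The orders below therefore hold between distant members more than between neighbours.

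Among pan-neuronal genes the synaptic vesicle regulator cpx (NCBI gene 64877) was highest, at 286 FPKM in control 1 and 242 in control 2. It was followed by Appl, the amyloid precursor homologue, at 163 and 132 FPKM, and by the SNARE gene Snap25 at 150 and 127 FPKM. The neuronal RNA-binding protein genes fne and elav stood at 143 and 98.0 FPKM and at 125 and 84.5 FPKM. Vesicle genes came next, with the calcium sensor Syt1 at 109 and 87.4 FPKM, the SNARE nSyb at 74.1 and 105, Rab3 at 51.8 and 61.2 and synapsin, Syn, at 64.1 and 43.4. Genes of the active zone were lower, with unc-13 at 27.8 and 30.4 FPKM, brp at 29.4 and 21.9 and Rim at 20.5 and 16.6. The lowest were comt (13.4 and 22.04 FPKM), Syx1A (6.30 and 12.7), the calcium channel gene cac (6.58 and 7.38), Rbp9 (5.4 and 5.01), the microtubule-associated protein gene futsch (3.81 and 6.34) and the sodium channel gene para (4.02 and 5.56). None of the 18 differed at least 2-fold between the pools, against 21.6% of all genes. Shares of all genes given here and below were not matched for transcript length. The SD of the difference fell from 1.61 in the shortest to 0.55 in the longest of 8 length classes. The median difference of the 18 genes was −0.17, or −0.49 relative to that of all genes. The relative value stayed between −0.54 and −0.22 over the alternatives tried.

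Glial genes spanned a similar range. The sodium pump subunit gene nrv2 (NCBI gene 33953) stood at 392 and 370 FPKM and the gap junction genes Inx2 and ogre at 344 and 259 FPKM and at 80.2 and 141 FPKM. The pan-glial transcription factor gene repo (NCBI gene 47285), the gene behind the driver, stood at 12.4 and 23.7 FPKM. Around it lay the lipocalin genes NLaz (15.7 and 35.1 FPKM) and GLaz (19.6 and 16.3), the engulfment receptor gene drpr (19.7 and 25.5), the transcription factor gene pnt (13.1 and 20.4) and loco, a regulator of G protein signalling (11.2 and 19.1). The determination factor gcm was lowest at 7.48 and 8.54 FPKM. NLaz alone of the 10 (10%) differed at least 2-fold, against 21.6% of all genes, and was higher in control 2.

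Genes of the blood-brain barrier were led by the claudin sinu at 102 and 81.2 FPKM. The second claudin gene kune stood at 37.1 and 63.7 FPKM, and the septate junction genes Cont, Nrx-IV and Gli at 38.6 and 52.5, at 38.6 and 39.2 and at 29.1 and 26.9 FPKM. The efflux transporter gene Mdr65 stood at 15.1 and 33.4 FPKM, the receptor gene moody at 16.1 and 24.1, and the trehalose transporter gene Tret1-1 at 4.04 and 19.1. Mdr65 and Tret1-1 were at least 2-fold higher in control 2, 2 of 8 genes against 17% of all.

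For astrocyte-like and cortex glia, Gs2, the glutamine synthetase gene, stood at 95.6 and 343 FPKM and alrm, an astrocyte gene, at 126 and 105 FPKM. The glutamate transporter genes Eaat1 and Eaat2 stood at 55.0 and 45.0 and at 17.6 and 16.8 FPKM, and the GABA transporter gene Gat at 36.6 and 47.7. The cortex glial genes wrapper, Cyp4g15 and zyd stood at 35.6 and 55.0, at 21.2 and 41.5 and at 17.0 and 35.9 FPKM. The lowest were wun2 (5.79 and 15.1 FPKM), the FGF receptor gene htl (5.04 and 6.71) and e, which conjugates amines to beta-alanine (1.58 and 3.04). Gs2, zyd and wun2 were at least 2-fold higher in control 2, 3 of 11 genes against 17% of all, and the order of Gs2 and alrm was not the same in both pools.

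Neuroblast genes were led by brat, a translational repressor passed to the differentiating daughter, at 398 and 213 FPKM, and by the polarity kinase gene aPKC at 110 and 84.7 FPKM. SoxN stood at 50.2 and 36.0 FPKM, the adaptor pon at 22.4 and 40.0, the Notch inhibitor numb at 32.5 and 28.5, and grh at 27.9 and 20.4. The scaffold mira stood at 11.99 and 29.5 FPKM. It was the only one of the 13 (7.69%) that differed at least 2-fold, against 21.6% of all genes. The stem cell transcription factor genes ase, wor, dpn and klu stood at 19.7 and 16.4, at 14.9 and 18.4, at 12.9 and 17.5 and at 11.1 and 8.43 FPKM. The polarity genes baz and insc stood at 14.9 and 16.9 and at 4.89 and 4.77 FPKM. Genes of the next step were high: nerfin-1, a factor of newborn neurons, at 203 and 102 FPKM and pros, which ends stem cell division, at 169 and 99.0 FPKM. Then came tap at 33.4 and 25.8 FPKM and Notum at 2.79 and 2.58 FPKM. Genes of the neuroblast list and of the ganglion mother cell list were thus expressed in both pools. As deposited, 8 of 13 of the former and 4 of 4 of the latter were lower in control 2. These counts were 10 of 13 and 4 of 4 on a common median, and 7 of 13 and 3 of 4 on a common sum. The median difference of all genes was 0.33 as deposited, −0.07 on a common median and 0.46 on a common sum. Relative to that of all genes, the medians of the neuroblast and ganglion mother cell lists were −0.52 and −0.90 as deposited.

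Neuroblasts change their output with age through a series of temporal factors. The late factor Syp (NCBI gene 42460), an RNA-binding protein, was highest at 519 FPKM in control 1 and 288 in control 2, followed by br, a late transcription factor that responds to ecdysone, at 280 and 166 FPKM. The late gene Eip93F stood at 33.3 and 16.3 FPKM. The early factors chinmo and Imp stood at 39.5 and 47.7 FPKM and at 15.4 and 24.5 FPKM. The genes cas and svp, which act before the late window opens, stood at 6.55 and 23.2 FPKM and at 9.34 and 13.9 FPKM. Syp, br and Eip93F were lower in control 2 and Imp, cas and svp higher on each of the 3 scales, whereas chinmo was higher as deposited and on a common sum but lower on a common median. The zinc finger gene mamo stood at 40.4 and 28.6 FPKM and the paralogs danr and dan at 27.3 and 26.2 and at 5.36 and 6.69 FPKM. Embryonic factors were low, with nub at 3.04 and 4.09 FPKM, Kr at 2.69 and 4.23, pdm2 at 0.90 and 1.77 and hb at 0.52 and 0.54.

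Genes that pattern the optic lobe were led by scro at 346 and 185 FPKM, then hth at 83.4 and 73.2 and dac at 50.8 and 33.1. D, a factor of the medulla series, stood at 32.9 and 28.2 FPKM, and bi, eya and ap at 28.4 and 21.4, at 26.5 and 19.5 and at 25.2 and 11.5 FPKM. The medulla temporal genes slp1, slp2, tll and ey stood at 9.78 and 21.2, at 13.5 and 16.6, at 12.8 and 13.2 and at 4.24 and 7.64 FPKM. The proneural gene l(1)sc, which marks the edge where neuroepithelium becomes neuroblasts, stood at 15.6 and 13.4 FPKM. The regional factors Optix, Vsx1 and Rx stood at 11.04 and 13.95, at 5.55 and 4.34 and at 1.30 and 3.55 FPKM. The remaining genes so, lov, hbn, bsh and acj6 lay between 3.19 and 12.3 FPKM. In control 2 slp1 was at least 2-fold higher and ap at least 2-fold lower. This was 1 gene each way of the 20 (5%), against 17% and 4.64% of all genes.

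Among neurotransmitter genes some orders across systems held in both libraries and others did not. The vesicular glutamate transporter gene VGlut (NCBI gene 33427) was highest at 73.0 and 49.7 FPKM. The cholinergic genes VAChT, Ace, ChT and ChAT stood at 48.1 and 36.9, at 40.3 and 37.1, at 22.2 and 18.1 and at 11.1 and 8.56 FPKM. The GABA synthesis gene Gad1 stood at 20.2 and 43.5 FPKM and its vesicular transporter VGAT at 12.7 and 13.8. Of the monoamine genes, the vesicular transporter Vmat stood at 34.4 and 26.8 FPKM, and the enzymes Trhn, Ddc, ple, Tbh and Tdc2 at 7.73 and 16.9, at 7.05 and 11.6, at 5.12 and 7.72, at 4.86 and 7.4 and at 1.02 and 2.55 FPKM. The reuptake transporters SerT and DAT stood at 1.67 and 2.41 and at 2.46 and 1.60 FPKM. Hdc, the histamine enzyme, was under 1 FPKM in both pools, at 0.37 and 0.43. In both libraries VGlut stood above the 4 cholinergic genes, while Gad1 lay below ChT in control 1 and above VAChT in control 2. Of 15 neighbouring pairs 5 did not overlap. Levels do not give cell numbers, since each gene's RNA per cell is unknown.

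Neighbouring receptor genes did not overlap in 2 of 9 nicotinic pairs, 7 of 17 pairs of GABA and glutamate receptors and 6 of 16 pairs of amine and muscarinic receptors. All 10 nicotinic acetylcholine receptor subunit genes were expressed, from nAChRbeta1 at 19.4 and 27.7 FPKM down to nAChRalpha3 at 3.1 and 1.96 FPKM. The subunits alpha6, alpha1, alpha4, alpha5 and alpha7 lay between 14.05 and 27.0 FPKM. The genes nAChRbeta3, nAChRalpha2 and nAChRbeta2 lay between 3.96 and 12.8 FPKM. The GABA receptor genes Rdl and Lcch3 stood at 25.1 and 30.6 and at 21.0 and 29.6 FPKM, whereas Grd was at 0.43 and 0.38. The glutamate-gated chloride channel gene GluClalpha stood at 25.02 and 21.0 FPKM, KaiR1D at 14.98 and 18.1, the metabotropic mGluR at 14.2 and 9.90, and the NMDA receptor genes Nmdar1 and Nmdar2 at 8.07 and 8.83 and at 7.22 and 7.12. The metabotropic GABA receptor genes GABA-B-R1, GABA-B-R2 and GABA-B-R3 stood at 11.4 and 8.38, at 4.76 and 11.2 and at 2.53 and 2.46 FPKM. The AMPA-type genes GluRIA and GluRIB stood at 3.83 and 7.02 and at 3.04 and 3.55 FPKM. Of the subunits known from the muscle side of the neuromuscular junction, GluRIIE stood at 2.04 and 1.5 FPKM and GluRIIA, GluRIIB, GluRIIC and GluRIID were all under 1 FPKM.

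Receptors for amines and muscarinic receptors had a median of 2.53 FPKM. The octopamine receptor gene Octbeta1R was highest at 12.8 and 10.98 FPKM, followed by DopEcR, for dopamine and ecdysone, at 8.4 and 11.95, 5-HT1A at 9.73 and 7.38 and mAChR-A at 7.05 and 8.08. These 4 lay apart from the rest, since the next gene, Octbeta2R, stood at 3.76 and 3.5 FPKM. The others down to Dop1R1 (1.59 and 1.28 FPKM) lay between 1.28 and 3.75 FPKM. 5-HT2B, 5-HT2A and mAChR-C were lowest, mAChR-C at 0.07 FPKM in both pools.

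Ion channel genes had a median of 6.98 FPKM. The potassium channel genes Sh, SK and Shal were highest at 24.5 and 19.5, at 19.9 and 13.3 and at 17.0 and 15.6 FPKM. The cation channel gene Ih stood at 7.20 and 13.3 FPKM and the inward rectifier gene Irk3 at 4.72 and 15.5 FPKM. Irk3 was the only one of 20 expressed channel genes (5%) that differed at least 2-fold, against 21.6% of all genes. Between 4.70 and 10.9 FPKM lay Shaw, Irk1, sei, Irk2, slo, Shab and NaCP60E, and between 2.08 and 3.76 FPKM lay Ca-alpha1T, eag, Ca-alpha1D, na, KCNQ and Elk. The leak channel gene Ork1 was lowest at 0.22 and 0.58 FPKM. Neighbours in this order overlapped in 16 of 20 pairs.

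Neuropeptide genes were more abundant than receptor and channel genes, with a median of 35.4 FPKM over 45 genes, 42 of them expressed. Nplp2 (NCBI gene 50286), a neuropeptide-like precursor gene, was highest at 502 FPKM in control 1 and 3203 in control 2, and Nplp4 followed at 89.1 and 475 FPKM. The ion transport peptide gene ITP stood at 138 and 154 FPKM, the insulin-like peptide gene Ilp2 at 174 and 97.8, and Lk, the leucokinin gene, at 162 and 108. At the low end RYa stood at 1.12 and 1.06 FPKM, Ilp8 at 0.21 and 0.20, Nplp3 at 0.34 and 0, and Ilp4 was listed in neither pool. Of the expressed 42 genes, 11 (26.2%) were at least 2-fold higher and 4 (9.52%) at least 2-fold lower in control 2, against 17% and 4.64% of all genes. The insulin genes of the brain's insulin-producing cells were higher in control 1, Ilp3 at 126 and 47.1 FPKM and Ilp5 at 152 and 51.4 beside Ilp2, and these were named after their values were seen.

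Genes that process peptides were high. The chaperone gene 7B2 stood at 146 and 130 FPKM, the amidation genes Pal2, Phm and Pal1 at 70.2 and 122, at 51.2 and 107 and at 14.9 and 26.6 FPKM. The carboxypeptidase gene svr stood at 76.3 and 85.2 FPKM and the convertase gene amon at 34.8 and 28.6. The regulator dimm, a transcription factor of peptide neurons, was under 1 FPKM in both pools, at 0.38 and 0.50. The enzymes thus stood far above the factor known to control several of them.

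**Figure D3:**
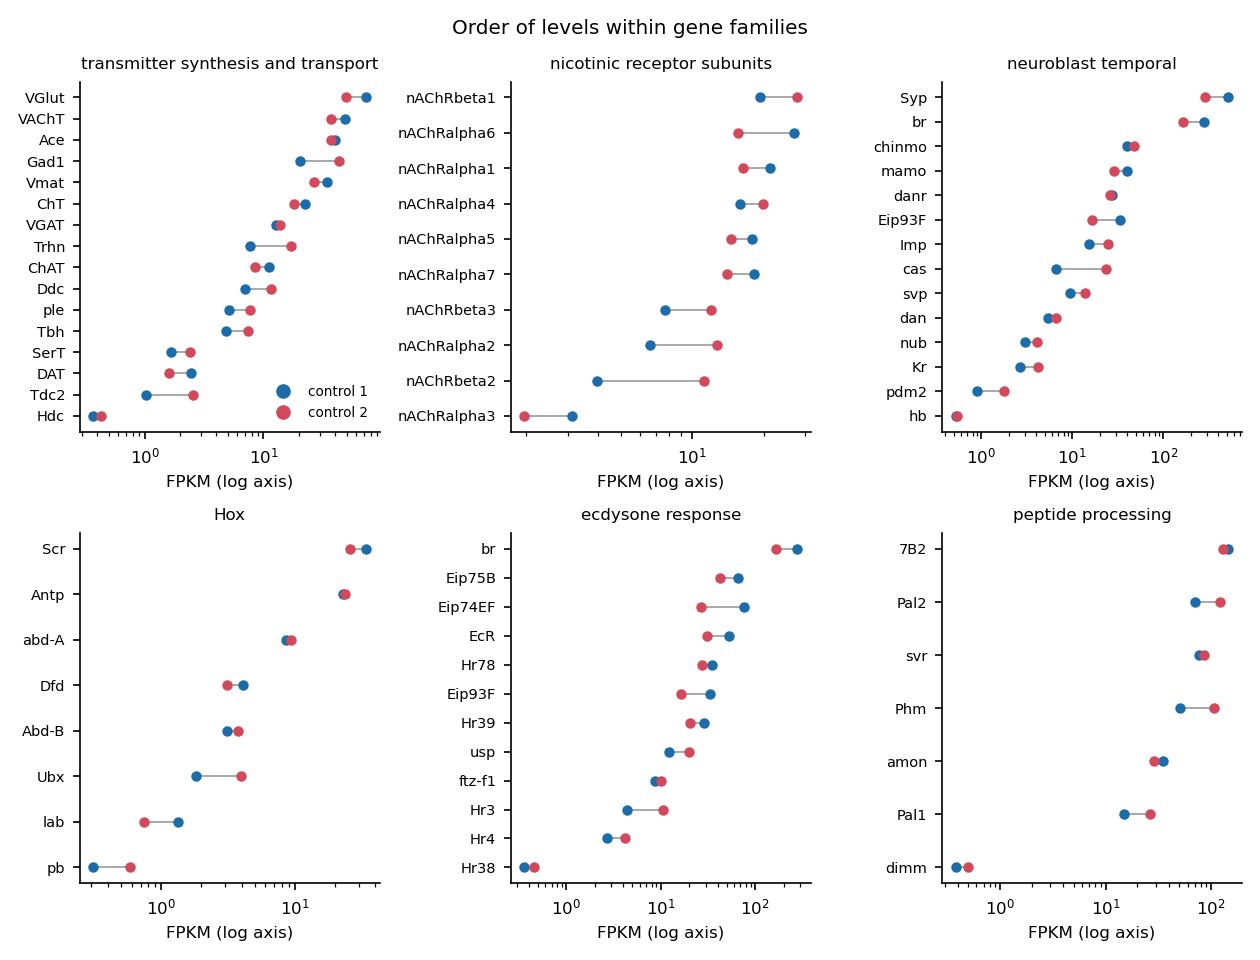
FPKM (log axes) of each gene in 6 families in control 1 (blue) and control 2 (red), ordered by the mean of both from the top down. The vesicular glutamate transporter gene VGlut leads the transmitter genes, Syp and br lead the temporal genes, Scr and Antp lead the Hox genes, and many neighbours overlap.

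Hox genes, which specify segments along the body, ranged from Scr at 34.2 and 25.8 FPKM to pb at 0.31 and 0.58 FPKM. Antp stood at 23.0 and 23.7 FPKM, abd-A at 8.64 and 9.40, Dfd at 4.07 and 3.13, Abd-B at 3.13 and 3.76, Ubx at 1.81 and 3.93 and lab at 1.33 and 0.74. In 5 of 7 neighbouring pairs both libraries of the higher gene lay above both of the lower, so this order was among the better separated ones. The Hox cofactor genes exd and hth were higher than any Hox gene, at 195 and 160 FPKM and at 83.4 and 73.2 FPKM. The head genes oc and ems stood at 13.9 and 11.5 and at 6.09 and 7.96 FPKM and unpg at 0.99 and 2.61.

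Ecdysone response genes were led by br. Eip75B followed at 66.0 and 42.8 FPKM, Eip74EF at 76.4 and 26.8, the receptor gene EcR at 52.4 and 30.8 and Hr78 at 35.02 and 27.6. Below Hr39 (28.6 and 20.5 FPKM) lay the receptor partner usp (12.2 and 19.8), ftz-f1 (8.65 and 9.99), Hr3 (4.39 and 10.6), Hr4 (2.69 and 4.15) and Hr38 (0.36 and 0.45). Of the 11 expressed genes 7 were lower in control 2, and the list's median difference was −0.46. Relative to that of all genes it was −0.79, with −0.83 on a common median and −0.75 with the trend on transcript length removed. Hr3 and usp were higher in control 2 on each of the 3 scales.

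Steroid synthesis genes of the ring gland showed the same sign. The gene spok, of the early steps of ecdysone synthesis, stood at 675 FPKM in control 1 and 248 in control 2. The Rieske oxygenase gene nvd stood at 99.5 and 25.3 FPKM, the hydroxylase genes sad and dib at 143 and 99.3 and at 33.2 and 17.4, and GstE14 at 73.0 and 29.0. The gene sro stood at 11.6 and 9.09 FPKM and jhamt, of juvenile hormone synthesis, at 15.9 and 12.03. Akh, the adipokinetic hormone gene, stood at 175 and 201 FPKM and was the one of 8 that was not lower in control 2 as deposited, though it was on a common median. The median differences of the ring gland (−0.71), ecdysone response (−0.46) and salivary gland (−5.69) lists were thus all negative, and the part of any of them in the others was not tested.

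Clock genes were split. The output genes vri, Pdp1 and cwo stood at 34.9 and 19.3, at 12.4 and 28.1 and at 10.4 and 10.2 FPKM, and cyc at 14.6 and 32.8. The core genes per, tim, Clk and cry, which are expressed in few cells of the larval brain, were all under 1 FPKM in both pools.

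Genes of sex determination and dosage compensation were read in pools whose sex the labels do not give. The noncoding RNA genes lncRNA:roX1 and lncRNA:roX2, which coat the male X chromosome, stood at 457 and 428 FPKM and at 105 and 102 FPKM. Sxl, the switch gene of the female pathway, stood at 254 and 172 FPKM. Both roX genes differed little between the pools. The splicing regulators tra2 and tra stood at 32.9 and 33.6 and at 7.18 and 15.4 FPKM, fru at 12.6 and 31.1, dsx at 9.68 and 6, and the compensation complex genes msl-2, mle, msl-3, msl-1 and mof between 6.04 and 21.0 FPKM.

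Families with a broadly used and a tissue-specific copy were ordered in part. Neighbours did not overlap in 4 of 5 actin pairs and 4 of 7 tubulin pairs. The counts were 4 of 7 for the list of elongation factor, cytochrome c and Gapdh genes and 4 of 6 for constitutive chaperones. Among actins, Act5C at 3497 and 3997 FPKM and Act42A at 365 and 569 stood far above Act57B (37.9 and 222) and Act87E (6.36 and 20.4), and Act88F, of flight muscle, and Act79B were at 0.11 FPKM or less. Among tubulins, alphaTub84B (1235 and 2026 FPKM) and betaTub56D (812 and 1653) led, betaTub60D (90.2 and 178) and alphaTub84D (58.1 and 109) followed, and alphaTub85E and betaTub97EF stood at 5.91 and 31.0 and at 7.27 and 17.1. The testis gene betaTub85D stood at 1 and 1.17 FPKM and the maternal gene alphaTub67C at 0.27 and 0.26. Near-identical copies make the split within both families uncertain. The ubiquitous copy exceeded the other in each of the pairs Cyt-c-p (184 and 413 FPKM) and Cyt-c-d (0.75 and 4.27), and eEF1alpha1 and eEF1alpha2 (382 and 398). The genes 14-3-3epsilon and 14-3-3zeta stood at 1033 and 1803 and at 813 and 901 FPKM. Of the constitutive chaperones, Hsc70-4 stood at 1380 and 1998 FPKM, Hsp83 at 267 and 647, Hsp60A at 225 and 182, Hsc70-3 at 93.3 and 251 and Hsc70-5 at 27.9 and 49.6. Hsc70-1 and Hsc70-2 were under 1 FPKM, and the testis gene Hsp60B was listed in neither pool.

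Of the energy metabolism genes, those of glycolysis differed most often between the pools. The 12 glycolysis genes had a median of 128 FPKM, 8 of them were at least 2-fold higher in control 2 against 17% of all genes, and their median difference was 1.15, which lies 0.82 above that of all genes. Gapdh2 stood at 557 and 852 FPKM, Eno, for enolase, at 311 and 508, and Ald1, for aldolase, at 205 and 435. The lactate dehydrogenase gene Ldh showed the widest gap, at 13.2 and 139 FPKM. The genes of muscle and fat body were higher in control 2 as well, and their part in this was not tested. Of the respiratory chain, complex I had 33 of 40 genes expressed, led by ND-MLRQ at 2532 and 1051 FPKM. Of these 33, 8 (24.2%) were at least 2-fold higher and 2 (6.06%) lower in control 2, against 17% and 4.64% of all genes. The ATP synthase list had 12 of 15 expressed, led by ATPsynC at 760 and 1489 FPKM, and complexes III and IV 15 of 25, led by COX5A at 1674 and 963 FPKM. Each of these lists had 1 gene at least 2-fold higher and 1 lower, shares of 8.33% and 6.67% each way. All 73 mitochondrial ribosomal protein genes were expressed with a median of 44.6 FPKM, led by mRpS5 at 642 and 355 FPKM. The 32 proteasome genes, all expressed, had a median of 108 FPKM, led by Prosalpha4 at 637 and 262 FPKM, and of 33 V-ATPase genes 20 were expressed, led by Vha16-1 at 754 and 770 FPKM.

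**Figure D4:**
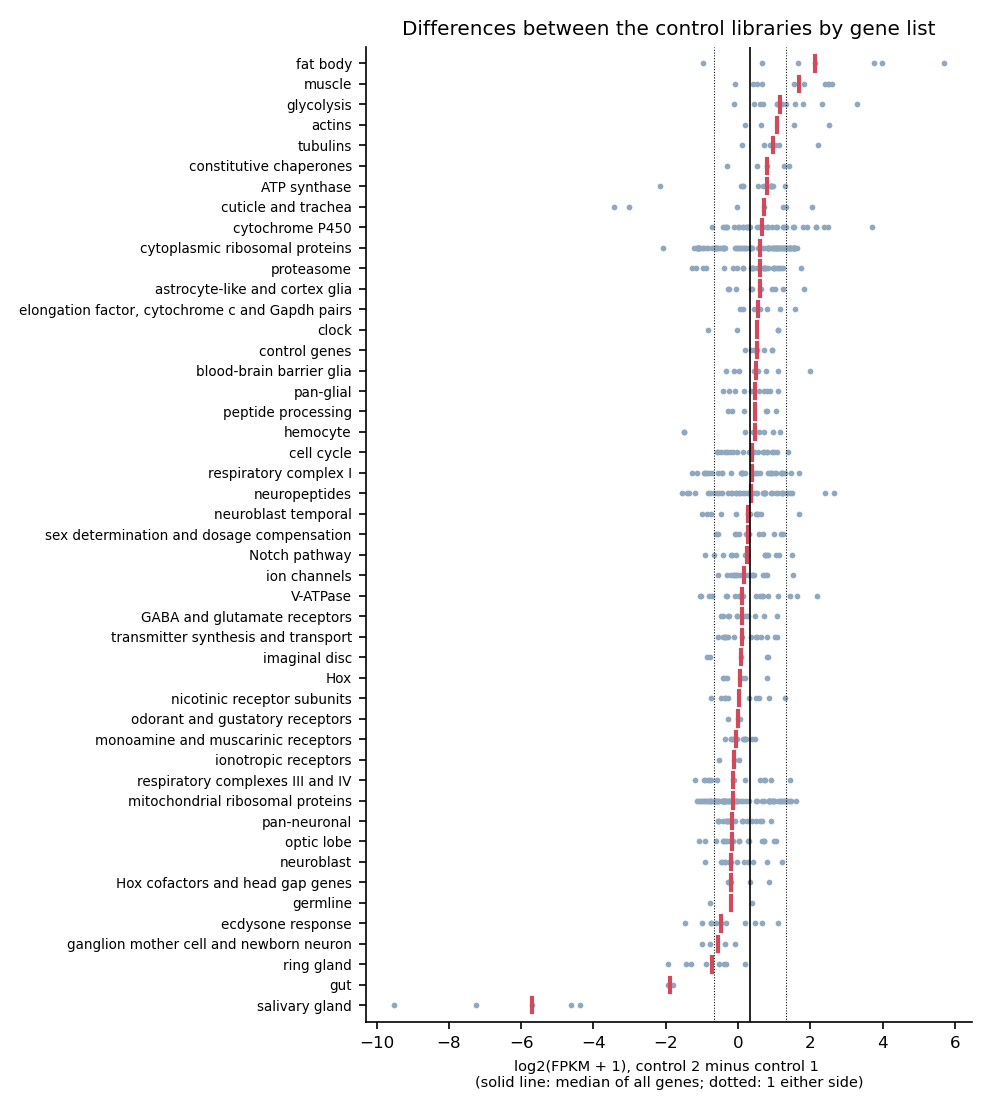
Difference between the libraries for each expressed gene (points) and the median of each list (red bars), as log2(FPKM + 1) of control 2 minus control 1; the solid vertical line is the median of all genes at 0.33 and the dotted lines lie 1 either side of it. Fat body and muscle genes lie to the right and salivary gland and gut genes to the left, and most other medians lie within 1 of the line.

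Of 47 lists with a median difference, 4 medians were at least 1, those of fat body (2.12), muscle (1.68), glycolysis (1.15) and actins (1.09), and 2 were −1 or lower, those of salivary gland (−5.69) and gut (−1.87). At a common median glycolysis (0.71) and actins (0.66) fell below 1, while ring gland (−1.14) and the ganglion mother cell list (−1.002) passed −1. Actins (0.41) and gut (−0.996) also missed it with no filter on low values, and actins (0.97) with the length trend removed. Tubulins (1.11) passed 1 on a common sum and cuticle and trachea (1.03) with the length trend removed. Fat body, muscle and salivary gland stayed past 1 in size in each of the 5 alternatives. The expressed salivary gland genes, and betaTry and alphaTry of the gut list, passed the filter only through control 1. This favours negative medians for both lists. With no filter on low values the salivary gland median was −5.16. Set against the median of all genes, 39 of the 47 kept their sign under every scaling, pseudocount, filter and length alternative tried.

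Genes of cell division were present. All 22 cell cycle genes were expressed, with a median of 39.4 FPKM. The transcription factor gene E2f1 was highest at 132 and 95.2 FPKM, followed by the mitotic kinase gene Cdk1 at 113 and 98.0, the replication clamp PCNA at 68.3 and 121, the phosphatase stg at 90.6 and 69.9 and polo at 54.1 and 105. The cyclin genes CycA, CycB, CycE and CycD stood at 68.3 and 75.6, at 46.8 and 61.4, at 33.0 and 26.5 and at 20.5 and 27.6 FPKM. The checkpoint gene BubR1 was lowest at 8.84 and 12.3 FPKM. Replication and mitosis genes were thus expressed in both pools, and 3 of the 22 (13.6%) were at least 2-fold higher in control 2, against 17% of all genes.

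Of 16 names listed for the Notch pathway, 15 were matched to genes, and all 15 were expressed, with a median of 21.4 FPKM. The name not matched was Dl, a ligand gene, so its level was not analysed here. The receptor gene N stood at 29.3 and 15.1 FPKM, the ligand gene Ser at 4.48 and 5.56, the protease gene kuz at 43.5 and 27.1, and the transcription factor gene Su(H) at 6.70 and 11.8. The target E(spl)mgamma-HLH, which is active in neuroblasts, was the highest of the list at 35.3 and 61.9 FPKM. The targets E(spl)mbeta-HLH and E(spl)m3-HLH stood at 18.4 and 41.7 and at 27.8 and 32.2 FPKM.

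Chemoreceptor genes were nearly silent. Of 119 odorant and gustatory receptor genes, 53 were listed and 3 reached 1 FPKM, namely Or43b at 8.75 and 8.81 FPKM, Gr43a, a fructose receptor known from the brain, at 5.6 and 4.43, and Gr32a at 1.30 and 1.38. Of 60 ionotropic receptor genes, 28 were listed and 3 reached 1 FPKM, Ir75d at 6.01 and 5.54, Ir76a at 1.36 and 1.41 and Ir54a at 1.70 and 0.87. The few that were expressed had near-equal values in both pools except Ir54a. Of 85 cytochrome P450 genes, 39 were expressed.

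Noncoding genes formed a small part of the total. Of 801 listed long noncoding RNA genes, 229 were expressed, and of 435 antisense RNA genes 312 were. No strand-marking step is named in the protocol, so an antisense or overlapping gene may hold reads of its partner, and 195 expressed genes shared identical values with another gene in both libraries. The most abundant long noncoding RNA, lncRNA:CR34335, stood at 2580 FPKM in control 1 and 2485 in control 2. Next were lncRNA:CR33938 at 696 and 1205 FPKM, lncRNA:CR40469 at 659 and 669, and lncRNA:cherub, which is known from neuroblast tumours, at 524 and 780 FPKM. The stress RNA lncRNA:Hsromega stood at 305 and 252 FPKM and lncRNA:noe at 210 and 214. Of these lncRNA:CR34335 alone, at rank 37, lay among the 100 most abundant genes, and all were named after their values were seen.

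By chromosome, X-linked genes stood level with autosomal ones. The median over 1604 expressed X genes was 14.9 FPKM and over 8184 genes of arms 2L, 2R, 3L and 3R 14.98 FPKM, a ratio of 0.995. The ratio was 1.03 in control 1 and 0.94 in control 2. Genes of chromosome 4, the small autosome rich in heterochromatin, stood higher. Of 99 listed, 93 were expressed, with a median of 45.2 FPKM and a ratio to the other autosomes of 3.02, which was 3.93 in control 1 and 2.88 in control 2 over the same genes. Above the autosomal median lay 71 of the 93 genes. The ratio depends on the filter, being 5.34 with none and 2.43 for genes of 5 FPKM or more. Chromosome 4 genes also had longer transcripts, with a median of 3612 bases against 1893, and the part of length was not tested. Of 19 listed Y genes 1 was expressed.

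The most abundant genes of chromosome 4, named after their values were seen, were RpS3A at 488 and 1364 FPKM and ATPsynbeta at 566 and 628 FPKM. The adaptor gene Crk stood at 666 and 334 FPKM and the GTPase gene Arf4 at 675 and 295. The lipid kinase gene PIP4K stood at 562 and 298 FPKM, the small GTPase gene Arl4 at 543 and 280.0 and the focal adhesion gene Zyx at 524 and 291. The cell surface gene dpr7 stood at 412 and 211 FPKM. The kinase gene CaMKI stood at 360 and 212 FPKM and the Polycomb group gene pho at 351 and 218. Apart from RpS3A and ATPsynbeta these were all higher in control 1. Genes of such levels were often higher there, with a median difference of −0.40 over all 237 genes of 300 to 1000 FPKM.

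**Figure D5:**
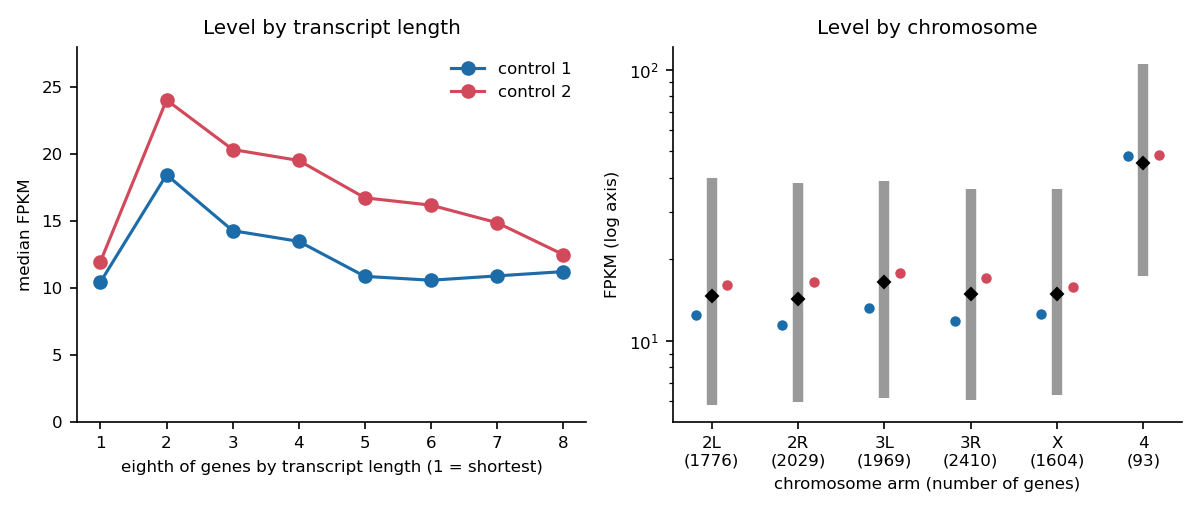
Left, median FPKM of expressed genes in 8 classes of transcript length, shortest to longest, in control 1 (blue) and control 2 (red). Right, FPKM (log axis) by chromosome arm, with the median of the mean FPKM as a diamond, the 25th to 75th percentile as a grey bar and the medians of control 1 and control 2 as blue and red points; chromosome 4, at 45.2 FPKM, lies above the other arms.

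Levels differed by transcript length, in no simple order. When expressed genes were divided by transcript length into 8 classes of near-equal size, the median was 12.9 FPKM in the shortest class, highest at 22.2 in the next, and fell with each further class to 12.3 in the longest. FPKM of short transcripts depends on how fragment length was handled, which the sources used here do not give, so levels of short genes and this pattern may be biased. The 100 most abundant genes had a median length of 960.5 bases, against 1958 for all expressed genes. The difference between the pools also followed length: its median was −0.19 in the shortest class, rose to 0.55 for transcripts of 1959 to 2507 bases and was 0.06 in the longest class. Its SD was 1.61 in the shortest class and 0.55 in the longest. Values of transcripts under 750 bases thus had the widest spread between the pools of the 8 classes.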

How the data were processed

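Per the labels' protocols, polyadenylated RNA of dissected nervous systems was enriched on oligo(dT) beads and its fragments were copied from random primers. Per the file headers, the authors deposited FPKM per gene, with 2 decimals, in a table for each sample. The submitters' processing notes name Bowtie2 and HISAT. Versions, quantifier and build were not given in the sources used here, and coordinates are therefore not printed. FPKM is relative to length and total, so a few abundant genes, or RNA integrity, can shift other values.

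Genes were named through a RefSeq table of assembly Release 6 plus ISO1 MT (13291 by gene number, 2 by transcript, 28 not). Lengths are those of the longest transcript in an Ensembl BDGP6 annotation, found for 13320 genes. Reads per FPKM came from the steps of low values of genes of 601 to 2500 bases. With 50 bases taken off the length, 96.5% (control 1) and 96.2% (control 2) of the values used were whole within 0.15 reads, against 30% by chance. Differences used a pseudocount of 1 FPKM. No test was run, since all samples belong to 1 group.

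The genes and lists were chosen with earlier results of these data known. Named genes were the 25 of highest mean, all members of marker and family lists of up to 22, the 5 highest and 3 lowest listed members of longer lists, the 8 largest differences each way at a mean of 10 FPKM or more, and the 3 highest members of other tissues' lists and those at 0. Others are said to be named after their values were seen, or stand as further members of their list. Of 433 list names, 5 were not analysed here. Alternatives were other thresholds, a pseudocount of 0.1, a common median or sum, a trend on length removed (lowess, span 0.5) and each library left out. The calculations were tested on simulated data. Statistics used statsmodels 0.14.6, scipy 1.17.1, numpy 2.4.6 and pandas 2.3.3 under Python 3.11.15, and figures matplotlib 3.10.9.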

Additional observations from a re-analysis of the deposited data

How the results depend on the processing

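The SD of the difference between the libraries was 1.27 with a pseudocount of 0.1 and 0.85 with no filter on low values, against 0.95. The share of genes that differed at least 2-fold, 21.6% in all, was 27.3% with that pseudocount, 16.8% with no filter, 20.2% at a mean of 5 FPKM or more, 19.9% when scaled to a common median, 25.7% to a common sum, 20.5% with the length trend removed and 20.7% for protein-coding genes alone, an alternative chosen after seeing the data. The FPKM share was 15.6% for 10 and 74.8% for 1000 leading genes in place of 100. With neighbours required to be 1.5 times apart, 45 of 281 pairs were ordered, against 101. The X ratio was 1.13 with no filter. The chromosome 4 ratio was 5.34 with no filter, 2.43 at 5 FPKM or more, 3.63 for protein-coding genes, and 2.89 to 3.70 with each library left out in turn. The cause of these shifts was not tested. Of 235 alternative values of the lists' median differences, 200 kept their sign and their side of 1 in size and 35 did not. Of the 35, 26 values, from 21 of the 47 lists, had the opposite sign, and none of these lists had a median of 1 or more in size. No paired analysis was possible because all libraries belong to 1 group. The search for core promoter motifs was not run. A group of 2 limits every spread given here.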
